A study of Mus musculus with 6 samples.

Results

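The antigen presentation and immunoproteasome genes are the genes with which a cell displays protein fragments to T cells. They were taken from the array annotation by symbol, as every gene whose symbol begins with H2- together with a list of named genes, each through a probe set with exactly 1 gene symbol, and for a gene with several probe sets the one with the highest mean over the 6 arrays. This gave 50 genes of the 22180 tested, of which 23 were class I chains, 9 supply peptides to class I, 12 belonged to class II, 2 were MHC-like, 3 were costimulatory and 1, H2-Ke6, carries the prefix but encodes a hydroxysteroid dehydrogenase. Of the 50, 46 had 1 probe set and 4 had several. H2-D1 and Cd74 are not analysed here.

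Liver RNA of male mice on the C57BL/6N background was measured in 3 cGK1-KO and 3 WT samples, 1 array per sample. cGK1 is cGMP-dependent protein kinase 1, and the series description adds a rescue in smooth muscle for the cGK1-KO animals. The WT samples are labelled wild type and described as controls. The mice were 2 months old, and the promoter of the rescue, and whether the WT mice carried it, are not given in the sources used here. The comparison asks how liver expression differs between the cGK1-KO animals, with this rescue, and the WT animals. Values are log2 RMA expression, in which 1 unit is a doubling, differences are cGK1-KO minus WT with their SE from limma, and each group has n = 3 arrays. In whole liver, more cells of a type and more RNA per cell cannot be told apart.

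In class I presentation, the proteasome cuts cytosolic proteins, the transporter Tap1-Tap2 carries the peptides into the endoplasmic reticulum, and tapasin and its relatives load them onto a heavy chain bound to beta-2 microglobulin. Under interferon gamma, cells exchange the 3 constitutive catalytic subunits of the proteasome for the immunoproteasome subunits. In class II presentation, macrophages, dendritic cells and B cells load peptides from endosomes onto alpha-beta dimers. In liver, hepatocytes carry class I, while class II is mostly carried by Kupffer cells, the resident macrophages, and by other immune cells.

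Prkg1, which encodes the kinase, lay at 3.31, 3.04 and 3.22 in the cGK1-KO arrays, against 3.32, 2.97 and 2.95 in the WT arrays. These levels lie near the median of the whole table (3.14) and do not check the genotype labels. The hepatocyte marker Alb lay at 13.31 to 13.44 in the cGK1-KO arrays and at 13.30 to 13.41 in the WT arrays. Array correlations across genes, which are not independent replicates, were 0.978 to 0.983 among cGK1-KO arrays and 0.989 to 0.990 among WT arrays. All cGK1-KO arrays against the WT arrays gave 0.978 to 0.983. The array of cGK1-KO replicate 3 correlated with the WT arrays at 0.981 to 0.983 and with the other cGK1-KO arrays at 0.978 and 0.979. It was thus slightly closer to the WT arrays than to its own group. Nothing in the labels says whether replicates came from different mice, and the spread behind the p-values may therefore be technical.

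Across the 50 genes the differences were small. No member passed an adjusted p of 0.05 in limma (0 of 50, smallest adjusted p = 0.321), as none of the 22180 genes did (0%). At an unadjusted p under 0.05 there were 9 of 50 members (18.0%), against 10.5% of all genes. Of these, 6 were higher in cGK1-KO liver (5.06% of all genes were higher by this rule) and 3 lower (5.46% of all genes). The 3 cGK1-KO values lay outside the range of the 3 WT values in 14 of 50 members (28.0%), 10 of them above and 4 below, against 16.7% of all genes (7.61% above and 9.14% below). The median log2 difference of cGK1-KO minus WT was 0.12 over the members, with a range of -0.42 to 0.69, and 0.0011 over all genes tested. The count of higher members at an unadjusted p under 0.05 depended on single arrays, being 12 without cGK1-KO replicate 3, 1 without cGK1-KO replicate 2, 2 without cGK1-KO replicate 1, 2 without WT replicate 3 and 3 without WT replicate 1. The count of lower members was 0 without WT replicate 2.

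**Figure D1:**
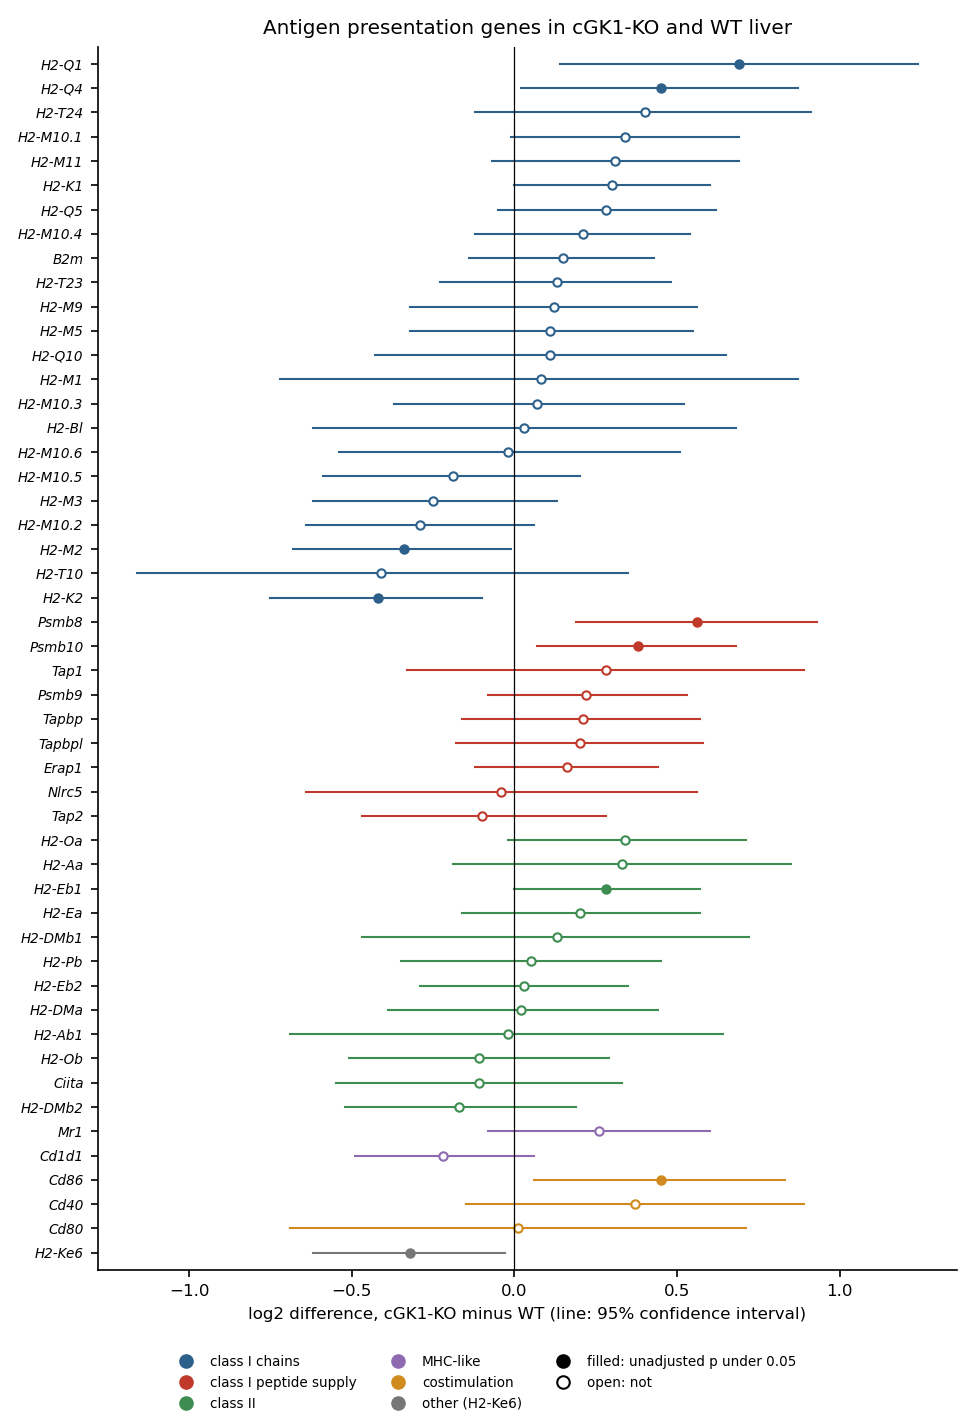
Log2 difference of cGK1-KO minus WT for each of the 50 genes, by role, with the 95% confidence interval of limma as a line. Filled points have an unadjusted p under 0.05, and the differences run from -0.42 for H2-K2 to 0.69 for H2-Q1.

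The means of all 3 immunoproteasome subunits were higher in cGK1-KO liver, and those of their constitutive counterparts were lower. Of the immunoproteasome subunits, 2 were higher at an unadjusted p under 0.05, against 5.06% of all genes. Psmb8, the immunoproteasome subunit with chymotrypsin-like activity, lay at 6.72, 6.47 and 6.36 in the cGK1-KO arrays, against 5.87, 5.76 and 6.23 in the WT arrays. The groups did not overlap, and the lowest cGK1-KO value was that of replicate 3. Its means were 6.52 ± 0.19 in cGK1-KO and 5.95 ± 0.24 in WT liver (SD, n = 3 each), a 1.48-fold ratio (log2 difference 0.56, SE 0.17, 95% confidence interval 0.19 to 0.93), with a limma adjusted p of 0.321. Psmb10, the subunit with trypsin-like activity, lay at 6.47, 6.48 and 6.16 in the cGK1-KO arrays, against 6.01, 6.00 and 5.98 in the WT arrays. Again no value overlapped, and the WT arrays were close together. The ratio of Psmb10 was 1.30-fold (log2 difference 0.38, SE 0.14, adjusted p = 0.396). Psmb9, the remaining inducible catalytic subunit, lay at 4.49, 4.39 and 4.32 in the cGK1-KO arrays, against 4.08, 4.35 and 4.11 in the WT arrays. WT replicate 2 fell inside the cGK1-KO range, and the log2 difference was 0.22 (SE 0.13, adjusted p = 0.591). Without cGK1-KO replicate 3 the log2 differences were 0.64 for Psmb8, 0.48 for Psmb10 and 0.26 for Psmb9, and without any single array they stayed within 0.46 to 0.70, 0.32 to 0.48 and 0.17 to 0.31. The 12 macrophage marker genes were also higher in all 3 cGK1-KO arrays, with medians of 0.73, 1.53 and 0.39 above the WT mean, and their part in these values was not tested.

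The constitutive subunits, which are not members, were read from a list of proteasome genes. Psmb5, which Psmb8 replaces, lay at 6.79, 6.97 and 6.61 in the cGK1-KO arrays, against 7.04, 7.21 and 7.26 in the WT arrays (log2 difference -0.38, SE 0.14, limma adjusted p = 0.402). Psmb7, which Psmb10 replaces, lay at 8.42, 8.27 and 8.22 in the cGK1-KO arrays, against 8.68, 8.79 and 8.62 in the WT arrays (log2 difference -0.40, SE 0.13, adjusted p = 0.350). Psmb6, which Psmb9 replaces, lay at 6.42, 6.25 and 6.16 in the cGK1-KO arrays, against 6.54, 6.58 and 6.69 in the WT arrays (log2 difference -0.33, SE 0.13, adjusted p = 0.429). In each of these 3 genes every cGK1-KO array lay below every WT array, as in 9.14% of all genes.

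As a within-array value, which does not depend on the overall scale of an array, each inducible subunit was set against the subunit it replaces. These 3 pairs were chosen after the values were seen, and only the change between groups has a meaning, since probe sets differ in brightness. Psmb8 minus Psmb5 was -0.07, -0.50 and -0.25 in the cGK1-KO arrays and -1.17, -1.45 and -1.03 in the WT arrays, a difference of 0.94 (1.93-fold). Psmb10 minus Psmb7 was -1.95, -1.79 and -2.06 in the cGK1-KO arrays and -2.67, -2.80 and -2.64 in the WT arrays, a difference of 0.77 (1.71-fold). Psmb9 minus Psmb6 was -1.93, -1.86 and -1.83 in the cGK1-KO arrays and -2.46, -2.23 and -2.58 in the WT arrays, a difference of 0.55 (1.46-fold). In all 3 pairs the groups did not overlap. For Psmb8 with Psmb5 and for Psmb10 with Psmb7 this was fixed in advance, since the single genes already lay apart in opposite directions. The permutation result of these pairs was fixed with it and adds no support. The exact 2-sided permutation test gave p = 0.1 for each pair, 0.1 after adjustment over the 3 pairs, which is the smallest p that 3 against 3 arrays allow, so this test cannot reach 0.05. Of the other genes of the proteasome list, Psme1, which encodes a subunit of the interferon-inducible proteasome activator, lay at 8.38 to 8.45 in the cGK1-KO arrays and at 7.96 to 8.32 in the WT arrays (log2 difference 0.33, limma adjusted p = 0.466). Psme2, its partner subunit, overlapped, at 4.01 to 4.46 in the cGK1-KO arrays and 3.68 to 4.28 in the WT arrays (log2 difference 0.17, adjusted p = 0.788). Psme4, which encodes another proteasome activator, had a log2 difference of -0.31 (adjusted p = 0.439). In the list of 8, 1 gene was higher and 4 lower at an unadjusted p under 0.05 (62.5%, against 10.5% of all genes).

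**Figure D2:**
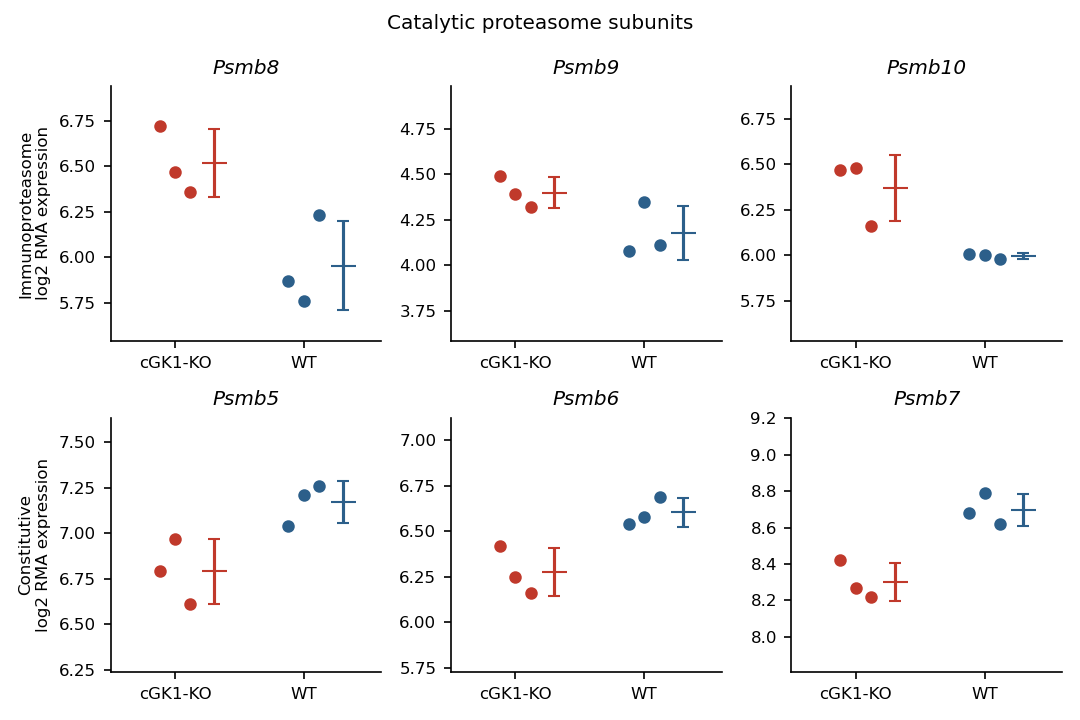
Log2 RMA expression of the immunoproteasome subunits (upper row) and of the constitutive subunit each replaces (lower row), each point 1 array, with the mean and SD of 3 arrays beside the points. Every panel spans an equal range of log2 units, and the cGK1-KO points lie above WT in the upper row, except for WT replicate 2 of Psmb9, and below WT in the lower row.

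The promoters of the immunoproteasome genes are shown because the means of these genes were higher together. They are RefSeq sequences of GRCm38.p6, from 250 bases before to 50 after the annotated start, and 34 of the 50 members had an entry. Capitals mark matches on either strand to the interferon regulatory factor composite GAANNGAAA, the Y box ATTGG, bound by NF-Y, and the kappa B site, searched as GGGA and CC with 4 bases of any kind between them. Psmb8 lies at chr17:34197945-34198244 on the plus strand, Psmb9 at chr17:34187281-34187580 on the minus strand and Psmb10 at chr8:105938343-105938642 on the minus strand.
Psmb8: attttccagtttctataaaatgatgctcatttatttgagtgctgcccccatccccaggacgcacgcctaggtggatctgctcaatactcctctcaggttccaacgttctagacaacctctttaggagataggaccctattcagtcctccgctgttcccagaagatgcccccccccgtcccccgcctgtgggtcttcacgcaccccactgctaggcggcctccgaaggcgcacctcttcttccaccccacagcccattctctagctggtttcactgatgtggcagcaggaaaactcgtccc
Psmb9: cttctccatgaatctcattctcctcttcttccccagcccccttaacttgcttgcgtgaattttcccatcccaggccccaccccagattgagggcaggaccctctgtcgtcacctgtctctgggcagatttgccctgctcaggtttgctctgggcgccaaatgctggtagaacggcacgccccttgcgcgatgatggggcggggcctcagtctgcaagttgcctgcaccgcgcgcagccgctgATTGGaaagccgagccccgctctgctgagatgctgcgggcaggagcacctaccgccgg
Psmb10: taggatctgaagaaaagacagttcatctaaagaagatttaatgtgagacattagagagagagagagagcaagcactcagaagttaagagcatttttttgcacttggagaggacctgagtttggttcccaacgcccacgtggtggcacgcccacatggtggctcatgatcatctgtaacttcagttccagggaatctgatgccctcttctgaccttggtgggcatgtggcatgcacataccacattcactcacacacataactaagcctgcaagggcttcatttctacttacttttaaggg
The Psmb9 window held 1 Y box, while the Psmb8 and Psmb10 windows held 0 matches to any of the 3 motifs. Of the constitutive subunits searched, the Psmb6 window held 1 regulatory factor composite and the Psmb5 window 0 matches. The Psmb9 window shares 275 bases with that of Tap1, which is read from the opposite strand. Among tested protein-coding genes in RefSeq order, Psmb9, Tap1, Psmb8, Tap2 and H2-Ob are neighbours, and their log2 differences were 0.22, 0.28, 0.56, -0.10 and -0.11. Whether these differ from each other was not tested. The regulatory factor composite was found in 7.52% of all 32851 promoters and in 5 of 34 members (14.7%). A Y box was found in 37.4% of all promoters and 27 of 34 members (79.4%), and a kappa B site in 20.7% of all promoters and 9 of 34 members (26.5%). In these shares all promoters are counted as RefSeq entries. Members are counted as genes, with a match in any entry of the gene (37 entries for 34 members). Many H2- genes are related in sequence, so their promoters are not independent.

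Of the few genes that carry peptides to class I, load them or switch the pathway on, 0 had an unadjusted p under 0.05, against 10.5% of all genes. With so few genes a count of 0 says little. Tap1, a subunit of the peptide transporter, lay at 6.47, 7.13 and 5.94 in the cGK1-KO arrays, against 5.97, 6.42 and 6.31 in the WT arrays. The cGK1-KO arrays held both the highest and the lowest value, and the log2 difference of 0.28 (SE 0.27, limma adjusted p = 0.748) was -0.02 without cGK1-KO replicate 2, 0.57 without cGK1-KO replicate 3 and 0.15 without WT replicate 1. Tap2, its partner, lay at 4.02, 4.56 and 4.32 in the cGK1-KO arrays and at 4.24, 4.51 and 4.44 in the WT arrays (-0.10, SE 0.17, adjusted p = 0.871). Nlrc5, the transactivator of class I genes, lay at 3.74, 4.57 and 3.39 in the cGK1-KO arrays and at 4.05, 4.03 and 3.75 in the WT arrays (-0.04, SE 0.27, adjusted p = 0.973). The 95% confidence interval of the Nlrc5 difference was -0.64 to 0.56. Erap1, which trims peptides in the endoplasmic reticulum, was 7.30 to 7.40 in the cGK1-KO arrays and 7.10 to 7.25 in the WT arrays, without overlap, but its log2 difference was only 0.16 (SE 0.12, adjusted p = 0.682). Tapbp, which encodes tapasin, and Tapbpl, which encodes a peptide editor related to it, had log2 differences of 0.21 and 0.20 (adjusted p = 0.688 and 0.712), and a dimmer probe set of Tapbp gave 0.08. Both were highest in cGK1-KO replicate 2. Over the 9 peptide supply genes, the immunoproteasome included, 7 differences were positive, the median was 0.21, and 2 genes, Psmb8 and Psmb10, had an unadjusted p under 0.05 (22.2%, against 10.5% of all genes). Without cGK1-KO replicate 2 that median was 0.04, and in 7 of the 9 genes this array was the highest of all 6, against 3967 of all 22180 genes.

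The general chaperones of the loading complex had lower means. Pdia3, which encodes the disulfide isomerase ERp57, lay at 8.87, 8.87 and 8.98 in the cGK1-KO arrays and at 9.09, 9.38 and 9.43 in the WT arrays (log2 difference -0.39, SE 0.14, limma adjusted p = 0.382). In this list of 3 all differences were negative, and only that of Pdia3 had an unadjusted p under 0.05 (33.3%, against 10.5% of all genes).

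Among the class I chains, the classical heavy chain gene H2-K1 and some genes of the Q region lay higher in cGK1-KO liver. H2-K1 lay at 9.72, 9.57 and 9.38 in the cGK1-KO arrays, against 9.24, 9.25 and 9.28 in the WT arrays. The groups did not overlap, the WT arrays lay close together and cGK1-KO replicate 3 was the closest to them, at a ratio of means of 1.23-fold (log2 difference 0.30, SE 0.13, limma adjusted p = 0.479). B2m, which encodes beta-2 microglobulin, the light chain of all class I molecules, lay at 12.33, 12.34 and 12.36 in the cGK1-KO arrays, against 12.09, 12.17 and 12.32 in the WT arrays, a log2 difference of 0.15 (SE 0.13, adjusted p = 0.714). It was among the brightest genes of the array, at the percentile 99.9 of the genes tested by mean level.

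H2-Q1, a non-classical class I gene, had the highest difference of all members. It lay at 6.07, 5.81 and 5.29 in the cGK1-KO arrays, against 4.58, 5.23 and 5.30 in the WT arrays, so cGK1-KO replicate 3 fell inside the WT range (log2 difference 0.69, SE 0.25, limma adjusted p = 0.385, and 0.46 without WT replicate 1). H2-Q4 lay at 5.76, 6.30 and 5.62 in the cGK1-KO arrays, against 5.27, 5.55 and 5.53 in the WT arrays (log2 difference 0.45, SE 0.19, adjusted p = 0.456), without overlap. That difference was 0.24 without cGK1-KO replicate 2, and a dimmer probe set of H2-Q4 gave 0.03, so the 2 probe sets disagree. H2-Q5 had 0.28 by the brighter and 0.50 by the dimmer of its probe sets (adjusted p = 0.537 for the brighter). H2-Q10, whose product is a soluble class I molecule secreted by the liver, lay at 8.62, 8.79 and 7.81 in the cGK1-KO arrays and at 8.15, 8.46 and 8.29 in the WT arrays, with cGK1-KO replicate 3 the lowest of all (0.11, SE 0.24, adjusted p = 0.901). Class I genes are close copies of each other, and their probe sets can share signal, so the values of single H2- genes are uncertain.

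In the T region, H2-T23, which encodes the Qa-1 molecule recognised by natural killer cell receptors, had a log2 difference of 0.13 (limma adjusted p = 0.809). H2-T24 had 0.40 (adjusted p = 0.575) with its highest value in cGK1-KO replicate 2, and H2-T10 had -0.41 (adjusted p = 0.706) with an SE of 0.33. The class I gene H2-Bl had 0.03. H2-K2, of the K region, lay at 4.74, 4.71 and 4.83 in the cGK1-KO arrays, against 5.12, 5.41 and 5.01 in the WT arrays, without overlap, so its direction was opposite to that of H2-K1 (log2 difference -0.42, SE 0.14, limma adjusted p = 0.366).

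The 12 genes of the M region were mostly at the dim end of the table, with 9 of them below its median of 3.14. H2-M3, which presents formylated bacterial peptides, lay at 4.17 to 4.65 in the cGK1-KO arrays and at 4.42 to 4.79 in the WT arrays (log2 difference -0.25, limma adjusted p = 0.638). H2-M2 lay at 3.14, 2.90 and 2.82 in the cGK1-KO arrays, against 3.49, 3.26 and 3.15 in the WT arrays, all at or near the table median (-0.34, SE 0.15, adjusted p = 0.464). H2-M10.1, of a family known from the vomeronasal organ of mice, lay at 4.06 to 4.58 in the cGK1-KO arrays and at 3.96 to 4.01 in the WT arrays (0.34, adjusted p = 0.482). H2-M11 (0.31), H2-M10.4 (0.21), H2-M9 (0.12), H2-M5 (0.11), H2-M1 (0.08), H2-M10.3 (0.07), H2-M10.6 (-0.02), H2-M10.5 (-0.19) and H2-M10.2 (-0.29) had these log2 differences, each with an unadjusted p above 0.05. Over all 23 class I chains, 16 differences were positive, the median was 0.11 (0.14 over the 14 chains above the table median), and 2 were higher and 2 lower at an unadjusted p under 0.05 (17.4%, against 10.5% of all genes). The M region chains had a median of 0.08 and the other 11 chains of 0.15. The median over all chains was 0.04 without WT replicate 1, 0.03 without WT replicate 2 and 0.19 without WT replicate 3.

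The H2-K1 promoter is shown for the class I regulatory sites it holds within a short stretch, and that of H2-Eb1 for comparison with a class II gene. In GRCm38.p6 they lie at chr17:34000298-34000597 on the minus strand, the first of 2 RefSeq entries for H2-K1, and at chr17:34305617-34305916 on the plus strand, with capitals marking the motifs named above.
H2-K1: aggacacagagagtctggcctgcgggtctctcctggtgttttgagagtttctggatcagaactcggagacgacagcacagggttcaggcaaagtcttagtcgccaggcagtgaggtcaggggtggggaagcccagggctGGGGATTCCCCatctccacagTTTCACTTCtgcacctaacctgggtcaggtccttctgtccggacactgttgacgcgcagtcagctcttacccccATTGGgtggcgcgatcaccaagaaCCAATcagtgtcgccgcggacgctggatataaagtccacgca
H2-Eb1: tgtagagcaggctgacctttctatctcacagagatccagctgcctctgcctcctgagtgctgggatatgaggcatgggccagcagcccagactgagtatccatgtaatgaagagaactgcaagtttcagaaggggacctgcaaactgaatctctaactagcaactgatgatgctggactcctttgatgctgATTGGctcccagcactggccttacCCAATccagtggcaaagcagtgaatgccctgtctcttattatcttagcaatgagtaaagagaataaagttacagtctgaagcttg
The H2-K1 window held 2 overlapping kappa B matches that form 1 palindrome, 1 regulatory factor composite and 2 Y boxes. The H2-Eb1 window held 2 Y boxes and 0 matches to the other motifs. A match is a description of letters and not evidence of binding in these livers.

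**Figure D3:**
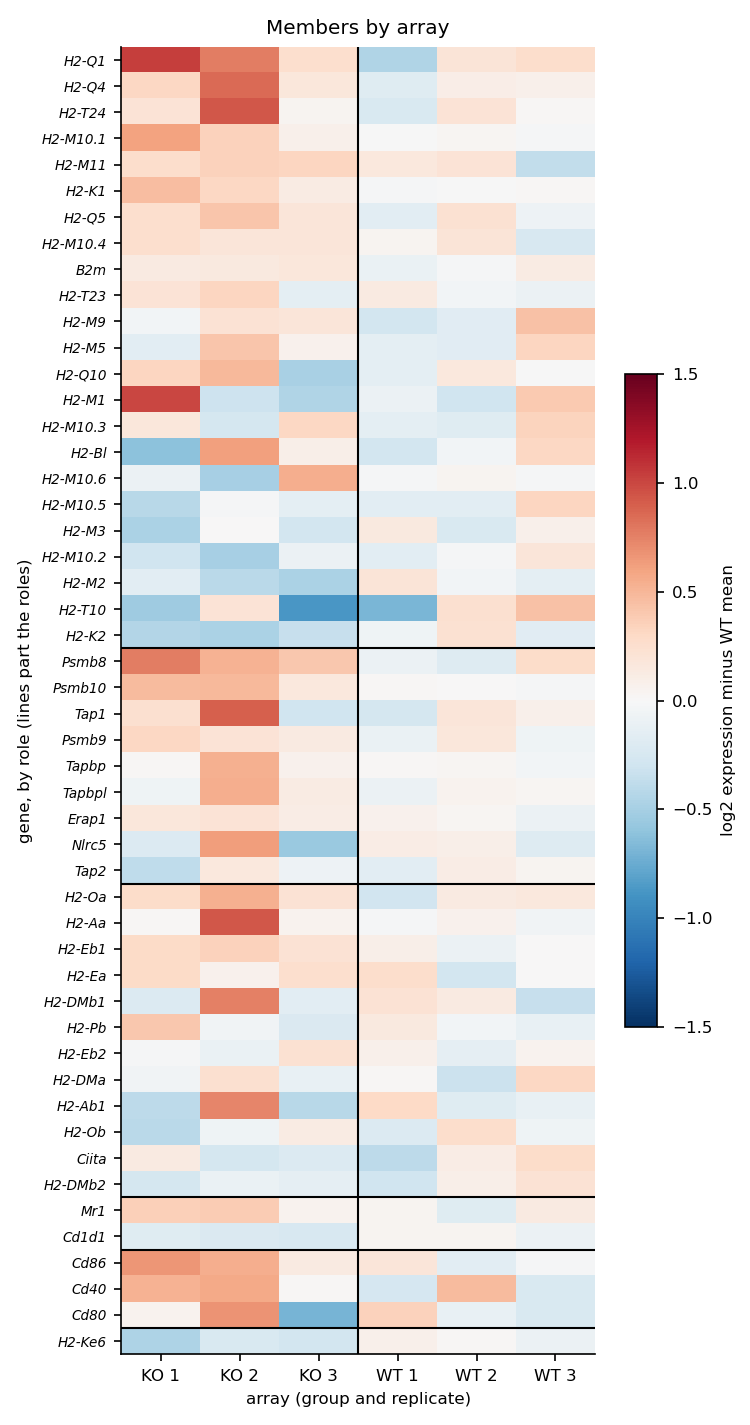
Log2 expression minus the WT mean of each gene for the 50 members (rows, by role) on the 6 arrays (columns), red above and blue below the WT mean. The array of cGK1-KO replicate 2 holds the highest value of the 6 arrays in 23 of the 50 genes and that of replicate 3 in 3. Over all 22180 genes these arrays hold the highest value in 3967 and 4341.

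Class II genes had differences around 0. Of 12 genes, 8 differences were positive with a median of 0.04, and 1, H2-Eb1, had an unadjusted p under 0.05 (8.33%, against 10.5% of all genes). H2-Eb1, a class II beta chain gene, lay at 5.49, 5.55 and 5.42 in the cGK1-KO arrays, against 5.29, 5.12 and 5.21 in the WT arrays, without overlap (log2 difference 0.28, SE 0.12, limma adjusted p = 0.469). H2-Aa, a class II alpha chain gene, lay at 4.23, 5.14 and 4.27 in the cGK1-KO arrays, against 4.20, 4.28 and 4.16 in the WT arrays. Replicate 2 alone stood out, and the log2 difference of 0.33 (SE 0.23, adjusted p = 0.645) was 0.04 without it. H2-Ab1, which encodes the beta chain that pairs with H2-Aa, lay at 5.87, 7.00 and 5.85 in the cGK1-KO arrays, against 6.57, 6.08 and 6.15 in the WT arrays. Here the other cGK1-KO arrays were the lowest of all 6, and the log2 difference of -0.02 (SE 0.29, adjusted p = 0.986) was -0.40 without cGK1-KO replicate 2 and 0.17 without cGK1-KO replicate 3.

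Ciita, the master transactivator of class II, lay at 4.15, 3.75 and 3.80 in the cGK1-KO arrays and at 3.62, 4.12 and 4.29 in the WT arrays (log2 difference -0.11, SE 0.20, limma adjusted p = 0.881). The peptide exchange factors H2-DMa, H2-DMb1 and H2-DMb2 had log2 differences of 0.02, 0.13 and -0.17, and their modulators H2-Oa and H2-Ob 0.34 and -0.11, with adjusted p-values of 0.498 to 0.976. H2-Oa lay at 2.78 to 3.09 in the cGK1-KO arrays and at 2.27 to 2.72 in the WT arrays, without overlap but below the table median. H2-Ea, whose product C57BL/6 mice are known to lack, lay at 2.08 to 2.30 in the cGK1-KO arrays and at 1.74 to 2.28 in the WT arrays, and H2-Eb2 and H2-Pb, also dim, had differences of 0.03 and 0.05. The median of the class II genes was 0.17 without cGK1-KO replicate 3, 0.13 without WT replicate 1 and 0.00 without cGK1-KO replicate 2.

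A list of 6 genes of class II processing in endosomes and of class II turnover had a median difference of 0.54, beside 0.04 for the class II genes. Of the 6 differences 5 were positive and 1 negative, and this gap between the lists was not tested. Ctss, which encodes cathepsin S, the protease that removes the invariant chain in antigen-presenting cells, lay at 7.22, 8.26 and 6.80 in the cGK1-KO arrays, against 6.60, 6.26 and 6.01 in the WT arrays. The groups did not overlap, and the log2 difference was 1.14 (2.20-fold, SE 0.33, limma adjusted p = 0.313), or 0.72 without cGK1-KO replicate 2. Ifi30, which encodes the interferon-inducible thiol reductase of lysosomes, lay at 6.37, 6.80 and 5.93 in the cGK1-KO arrays, against 5.56, 5.59 and 5.78 in the WT arrays (0.72, SE 0.21, adjusted p = 0.312). Lgmn, which encodes the endosomal protease legumain, had a difference of 0.81 (adjusted p = 0.336), or 0.48 without cGK1-KO replicate 2. Marchf8, which encodes a ubiquitin ligase known to remove class II and Cd86 from the cell surface, was lower, at 6.05, 5.93 and 5.98 in the cGK1-KO arrays, against 6.64, 6.25 and 6.31 in the WT arrays (-0.42, SE 0.14, adjusted p = 0.375). Of the 6 genes of this list, 3 were higher and 1 lower at an unadjusted p under 0.05 (66.7%, against 10.5% of all genes).

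Macrophage markers were also higher, most of all in the array with the highest values of Ctss, Ifi30 and Lgmn. All 12 markers of macrophages and Kupffer cells had an unadjusted p under 0.05 and a higher mean in cGK1-KO liver, against 5.06% of all genes. Their median difference was 0.84, and none passed an adjusted p of 0.05 (limma, smallest 0.221, for C1qa). Among them C1qa, a complement subunit made by macrophages, differed by 0.84, the scavenger receptor Marco by 0.74 (adjusted p = 0.249), the lysosomal protein Cd68 by 0.98 (adjusted p = 0.266) and Cd5l by 1.4 (adjusted p = 0.272). Their summed linear signal was 919 to 2120 in the cGK1-KO arrays and 682 to 736 in the WT arrays, and all 12 lay above the table median. In 11 of the 12, against 3967 of all 22180 genes, the highest array was cGK1-KO replicate 2. That array also held the highest H2-Aa, H2-Ab1, Tap1, Nlrc5, Ctss, Ifi30 and Lgmn. Psmb8 and H2-K1 were highest in cGK1-KO replicate 1 and Psmb10 in cGK1-KO replicate 2. Without cGK1-KO replicate 2 the differences of Psmb8, H2-K1 and Psmb10 were 0.59, 0.29 and 0.32. Those of C1qa, Marco, Cd68 and Cd5l were 0.66, 0.57, 0.71 and 0.94 without it. The 7 sinusoidal endothelial markers were each highest in cGK1-KO replicate 2 as well, with a median difference of 0.27 and summed signals of 708 to 1180 in the cGK1-KO arrays and 647 to 665 in the WT arrays. Their medians minus the WT mean were -0.09, 0.76 and 0.05 in cGK1-KO replicates 1 to 3, so only replicate 2 stood clearly above WT. Of the 7, 2 had an unadjusted p under 0.05, both higher (28.6%, against 10.5% of all genes). These were Lyve1, which differed by 0.92 (adjusted p = 0.178), and Cdh5, by 0.54 (adjusted p = 0.429), or 0.27 without cGK1-KO replicate 2. The groups overlapped in the other 5, whose differences were at most 0.27. The part of macrophage and endothelial RNA in the differences of the presentation genes was not tested.

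Costimulatory genes, whose products give T cells the additional signal they need, had levels near the table median, with Cd80 below it. Cd86, a ligand of Cd28, lay at 4.02, 3.91 and 3.50 in the cGK1-KO arrays, against 3.54, 3.20 and 3.35 in the WT arrays. Only cGK1-KO replicate 3 and WT replicate 1 overlapped (log2 difference 0.45, SE 0.17, limma adjusted p = 0.407). Cd40, a receptor that T cells engage, lay at 3.74, 3.79 and 3.24 in the cGK1-KO arrays, against 2.97, 3.70 and 2.99 in the WT arrays (0.37, SE 0.23, adjusted p = 0.601), or 0.61 without WT replicate 2 and 0.24 without WT replicate 1. Cd80, the other Cd28 ligand, lay at 2.91, 3.53 and 2.16 in the cGK1-KO arrays, against 3.20, 2.75 and 2.63 in the WT arrays, which is too scattered to read a direction (0.01, SE 0.31, adjusted p = 0.995).

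The MHC-like genes lay in opposite directions. Cd1d1, which presents lipids to natural killer T cells, lay at 6.13, 6.10 and 6.07 in the cGK1-KO arrays, against 6.36, 6.36 and 6.22 in the WT arrays, a small difference without overlap (log2 difference -0.22, SE 0.12, limma adjusted p = 0.568). Mr1, which presents vitamin B metabolites of microbes to MAIT cells, lay at 5.38, 5.40 and 5.07 in the cGK1-KO arrays, against 5.06, 4.84 and 5.16 in the WT arrays (0.26, SE 0.15, adjusted p = 0.577). H2-Ke6, named for its place among the H2 genes, lay at 6.45, 6.69 and 6.64 in the cGK1-KO arrays, against 6.99, 6.93 and 6.82 in the WT arrays (-0.32, SE 0.13, adjusted p = 0.431).

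Of the interferon gamma pathway that switches these genes on, Irf1, a transcription factor acting directly on class I and immunoproteasome promoters, lay at 4.84, 5.05 and 4.96 in the cGK1-KO arrays, against 4.56, 4.49 and 4.37 in the WT arrays. The groups did not overlap, and the log2 difference was 0.48 (SE 0.13, limma adjusted p = 0.299). Irf8, a factor of myeloid cells, had a difference of 0.36 (adjusted p = 0.439), or 0.22 as the mean of its probe sets. Ifng itself was below the table median on all 6 arrays, at 1.71 to 1.96 in the cGK1-KO arrays and at 1.84 to 2.10 in the WT arrays. Of 9 measured genes of this list, 2 were higher and 0 lower at an unadjusted p under 0.05 (22.2%, against 10.5% of all genes). Of the 7 genes for factors bound at MHC promoters, 0 passed that rule, and the largest statistics were those of Rfxap (0.22, adjusted p = 0.609) and Rfxank (-0.19, adjusted p = 0.628), subunits of the RFX complex.

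Markers of other cell types had smaller median differences than the macrophage markers. The 7 B cell markers summed to 49.4 to 61.8 in the cGK1-KO arrays and 48.6 to 51.5 in the WT arrays, and Ms4a1 and Pax5 were below the table median on all arrays. Their median difference was 0.08, with 5 positive and 2 negative differences from -0.15 to 0.51, the highest that of Cd22 (limma adjusted p = 0.402). The 9 dendritic cell markers had a median difference of 0.07, with 5 positive and 4 negative differences from -0.21 to 0.83. Their sum was 513 to 644 in the cGK1-KO arrays and 339 to 374 in the WT arrays. It held Cd209a as its brightest gene (0.83, limma adjusted p = 0.151, or 0.35 as the mean of its probe sets). The defining marker Flt3 lay at 2.27 to 3.62 in the cGK1-KO arrays and at 2.81 to 3.19 in the WT arrays, and Xcr1 differed by 0.36 (adjusted p = 0.407). The 9 T and NK cell markers summed to 89.1 to 97.0 in the cGK1-KO arrays and 79.8 to 87.0 in the WT arrays. Of their differences 7 were positive and 2 negative, from -0.37 to 0.61, with a median of 0.16. The highest was that of Cd3e (limma adjusted p = 0.249). The 7 neutrophil markers summed to 40.9 to 50.1 in the cGK1-KO arrays and 38.1 to 39.8 in the WT arrays, with 4 of the 7 below the table median on all arrays, among them S100a8 (0.46, adjusted p = 0.415, or 0.27 without cGK1-KO replicate 1) and Retnlg (0.59, adjusted p = 0.460, or 0.39 without WT replicate 3). The neutrophil list had a median difference of 0.29, with 6 positive differences and 1 negative. In it 2 of 7 genes, both higher, had an unadjusted p under 0.05 (28.6%, against 10.5% of all genes). Of 7 hepatocyte markers, only the transcription factor Hnf4a had an unadjusted p under 0.05 (14.3%, against 10.5% of all genes). Its difference was -0.36 (limma adjusted p = 0.399), and the median of the list was 0.02. The part of these cells in the differences above was not tested.

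**Figure D4:**
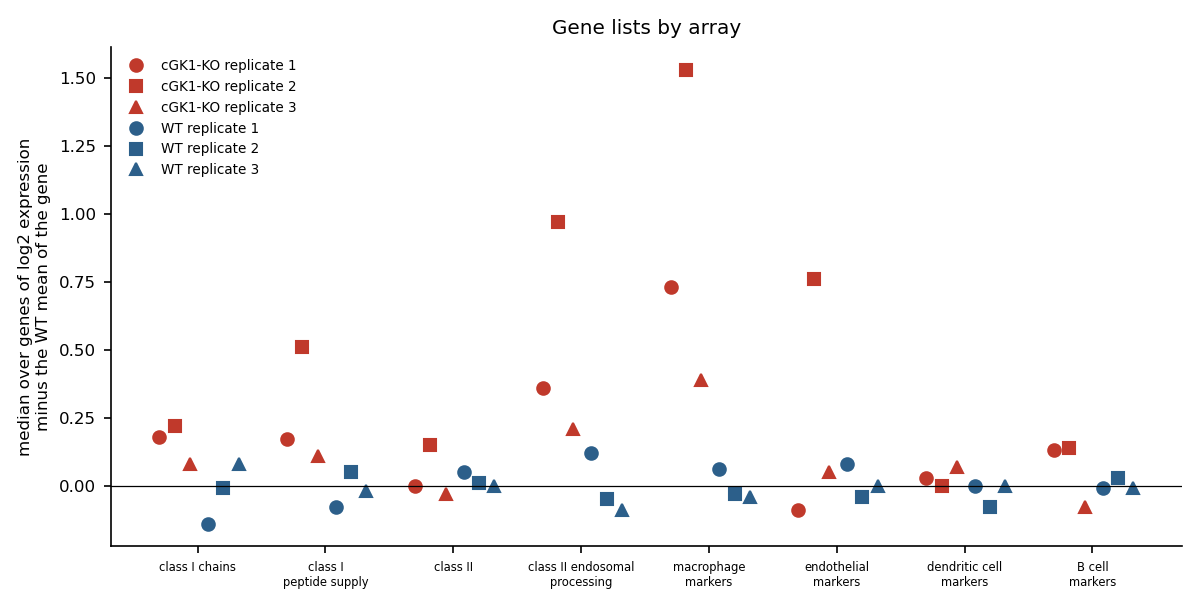
Median over the genes of each list of log2 expression minus the WT mean of the gene, for each array (cGK1-KO left, WT right within a list). The macrophage list lies at 0.73, 1.53 and 0.39 in cGK1-KO replicates 1 to 3, while the class II list lies at 0.00, 0.15 and -0.03 and the class I chains at 0.18, 0.22 and 0.08.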

How the data were processed

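Total liver RNA of 3 cGK1-KO and 3 WT samples was hybridised to 1 array each. Per the labels' protocols, biotinylated cRNA was made from 100 ng of RNA. Per the submitters' processing notes, the authors used Affymetrix Expression Console 1.4.1 and RMA, and the deposited values are log2 expression of 41345 probe sets. RMA gives the arrays a common distribution (array medians 3.11 to 3.16), so a shift shared by most genes would not be visible. No genome build is given in the sources used here. The platform annotation gave a single symbol for 23521 probe sets, more than 1 for 1814 and listed none of the remaining 16010. For each of 22180 genes the probe set with the highest mean was used. No pair of arrays was identical (0 pairs).

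Differences are cGK1-KO minus WT from lmFit and eBayes of limma 3.58.1 (R 4.3.3), with 2-sided p-values adjusted by the Benjamini-Hochberg method over 22180 genes, threshold 0.05. The fit was tested on simulated data with shifts larger than the difference of any member, so that test does not cover differences as small as theirs. The exact permutation test used SciPy 1.17.1. The number of arrays limits the precision. No filter on dim probe sets was used, and values below the table median (3.14) are called dim.

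The members and lists were chosen with earlier results of these data known. Values per array are given for defining members and for members at an unadjusted p under 0.05, and up to 4 genes of each other list are named. Psme1, Psme2, Ifng, Flt3, Ms4a1, Pax5 and Alb were named outside that rule after their values were seen, as were H2-Q10 and Erap1 per array. H2-Pb and H2-Ke6 were given roles after the annotation was read.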

Additional observations from a re-analysis of the deposited data

How the results depend on the processing

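The alternatives were a further quantile normalization, median centring, a filter that kept genes above the table median, an intensity trend in the variance prior, the replicate number as a block, the mean of all probe sets of a gene, and leaving out each array. Under each of these 12 settings 0 members passed an adjusted p of 0.05 in limma. Over all genes, 0 in the comparison as reported, 15 passed with the dim filter, 25 with the intensity trend and 1 with the replicate block, and 0 to 66 without single arrays (66 without cGK1-KO replicate 3, 3 without WT replicate 3). At an unadjusted p under 0.05, 1543 (without WT replicate 2) to 2734 (without cGK1-KO replicate 2) genes were counted without single arrays, beside 2334 with all of them. The numbers of higher and lower members at that p without single arrays were 1 to 12 and 0 to 3. Medians without single arrays were 0.04 to 0.30 for the peptide supply genes and 0.00 to 0.17 for class II. Signs turned for Tap1 (-0.02 without cGK1-KO replicate 2, range without single arrays to 0.57), Tap2 (0.04 without cGK1-KO replicate 1, range from -0.22), Ciita (0.03 without WT replicate 3, range from -0.30), Nlrc5 (0.00 to 0.22 without WT replicate 1 or 2 or cGK1-KO replicate 1 or 3, range from -0.37), H2-Ab1 (0.04 with quantile normalization, 0.13 to 0.17 without WT replicate 1 or cGK1-KO replicate 1 or 3, range from -0.40) and Cd80 (-0.02 with quantile normalization, -0.32 to -0.01 without WT replicate 2 or 3 or cGK1-KO replicate 1 or 2, range to 0.36). The causes were not tested. The pairs of proteasome subunits, chosen after seeing the data, kept their sign in all 12 settings, but this was largely fixed in advance. Where groups do not overlap, leaving out 1 array cannot turn a sign. The dim filter, intensity trend, replicate block, mean of probe sets and median centring left the differences at 0.94, 0.55 and 0.77. Psmb8 kept an unadjusted p under 0.05 in 12 of 12 settings (adjusted p 0.206 to 0.716), H2-K2 in 11, H2-Q1 in 9, Psmb10 in 8, Cd86 in 8, H2-Ke6 in 7, H2-Q4 in 6, H2-Eb1 in 4 and H2-M2 in 6 of 11. Of the other named genes, Cd5l (adjusted p = 0.04, limma) passed without cGK1-KO replicate 3 and Cd209a (adjusted p = 0.0443) with the intensity trend. Same-numbered arrays deviated from their group means with small correlations of 0.00641, 0.0525 and 0.0154, so the numbers were not taken to pair the samples. Whether they do was not settled, since 4 of 6 arrays correlated best with their own number. With the replicate block 6 members were higher and 2 lower at an unadjusted p under 0.05, beside 6 and 3 without it. Dim genes, such as Cd80 and most of the M region, limit what can be read at this signal.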
